A study of Homo with 4 samples.

Results

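Genes whose expressed transcripts begin at separate start sites were selected from the deposited transcript table of H1299 cells. Transcripts were kept where their FPKM (a fragment count scaled to transcript length and library size, so a level per length) averaged 1 or more over the 4 libraries. A gene was taken where at least 2 kept transcripts had 5′ ends more than 1000 bp apart and where its span overlapped no other gene on the same strand. This gave 1858 of the 20263 genes in the files, after 193 genes with such an overlap were dropped from 2051. The selection used the mean level over all 4 libraries and the annotated positions. A transcript high in a single group can pass on that mean, and of the kept transcripts of these genes 870 averaged 1 FPKM or more in shCtrl only and 502 in shIGF2BP3 only, against 5732 in both groups. With the minimum required in both groups, 1409 of the 1858 genes still had starts more than 1000 bp apart. A start here is the annotated 5′ end of a transcript model on GRCh38, not a mapped cap site.

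H1299 is a long-used human line from a non-small cell lung cancer. The series holds RNA-seq of these cells after lentiviral infection with a control hairpin (shCtrl, n = 2) or with a hairpin against IGF2BP3 (shIGF2BP3, n = 2). IGF2BP3 encodes an RNA-binding protein that reads m6A-marked transcripts and affects their stability. The replicates are labelled as biological, but the labels do not give the hairpin of each shIGF2BP3 library, and the spread of that group may hold a difference between hairpins.

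A gene can carry several promoters, each giving transcripts with a first exon of their own. The choice of start site can change the 5′ UTR, and with it how well the mRNA is translated, or the first codons and so the N-terminus of the protein. Alternative promoters are well known for cytoskeletal genes such as the tropomyosins, for the imprinted GNAS locus and for CDKN2A, and start choice can differ between cells while the total output of the gene stays similar. In short-read data, however, shares of transcripts that overlap over most of their length rest on few distinguishing reads and on the estimation step.

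The libraries held between 29709686 and 34817513 estimated counts, and shIGF2BP3 replicate 2 was the smallest. The kept transcripts of the selected genes took 27.0% to 29.6% of these counts. Fewer transcripts were above 0 in shIGF2BP3 replicate 2 (46083) than in the other libraries (50745 to 53243), and its mitochondrial share was highest, at 17.0% against 9.11% to 13.4%. IGF2BP3 itself was 41.1 and 32.9 CPM (counts scaled to library size) in shCtrl and 26.4 and 24.8 CPM in shIGF2BP3, lower in both knockdown libraries by edgeR's quasi-likelihood test before adjustment (log2 fold change −0.53, SE 0.17, unadjusted p = 0.0244, adjusted p = 0.472). IGF2BP1, IGF2BP2, IGF2BP3 and FASN were not among the selected genes. The labelled cell type, epithelial, was borne out only in part: KRT18 ranged from 613 to 713 FPKM and KRT8 from 330.4 to 447, whereas KRT7 was at 2.44 to 3.71 FPKM, EPCAM stayed at or below 0.157, CDH1 at or below 0.0103 and KRT19 at or below 0.172 FPKM. Of the mesenchymal markers, VIM was at 1828 to 2612 FPKM, CDH2 at 6.28 to 8.02 and FN1 at 1.69 to 6.35. The lung markers NKX2-1, SFTPB and SCGB1A1 were at 0 to 0.0599 FPKM, the endothelial PECAM1 and VWF at 0 to 0.0411, and the blood markers PTPRC, CD3E and HBB at 0. Among genes with at least 5 CPM in the other 3 libraries, 6 lay more than 10 times below each of those in shCtrl replicate 2, as did 3 in shCtrl replicate 1, 3 in shIGF2BP3 replicate 1 and 14 in shIGF2BP3 replicate 2.

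The 1858 genes held 7104 kept transcripts, with a median of 3 and at most 21 per gene. Transcripts of a gene were joined into start groups from the most upstream end, a new group beginning where an end lay more than 1000 bp from the first end of the group before. This gave 4212 start groups. 1 gene (ENSG00000141198) listed kept transcripts on both strands and could not be grouped. Of the others, 1488 (80.1% of the grouped genes) had 2 start groups, 279 had 3, 59 had 4, 23 had 5 and 8 had 6. The widest distance between 5′ ends had a median of 11403 bp, with quartiles of 3853 and 32888 bp. It exceeded 10000 bp in 976 genes and 100000 bp in 126 genes. In 1027 genes (55.3%) the kept transcripts also ended more than 1000 bp apart, so start and end choice are not separate there.

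Genes at the limits of the selection were little different from each other. On the distance, DAZAP2 (1003 bp), ZMYM3 and WEE1 (both 1006 bp) were just inside, and TRIP13, MRPS7 (both 999 bp) and MPC2 (1000 bp) just outside. On the level, the lowest kept transcript belonged to CELF1, at a mean of 1.0003 FPKM, and the highest transcript left out to NAP1L1, at 0.9999 FPKM.

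The share of a start group is the percentage that its transcripts take of the summed FPKM of the gene's kept transcripts in a library. In shCtrl the most upstream group held the largest share in 1315 genes (70.8%), and in shIGF2BP3 in 1303 genes. The largest group of a gene held a median of 78.4% in shCtrl. It held 90% or more in 513 genes and under 60% in 395 genes.

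Replicates differed in these shares about as much as the groups did. The median absolute difference in share over all start groups was 5.16 percentage points between the shCtrl replicates and 5.86 points between the shIGF2BP3 replicates. Across the groups it ran from 5.13 points (shCtrl replicate 2 against shIGF2BP3 replicate 1) to 8.02 points (shCtrl replicate 1 against shIGF2BP3 replicate 2), and both pairs with shIGF2BP3 replicate 2 were the higher ones. Of 1855 genes with a share in all 4 libraries, 1217 had the same largest start group in every library. The largest start group differed between the shCtrl replicates in 337 genes and between the shIGF2BP3 replicates in 361 genes, and in 81 genes it differed between the groups while the replicates of each group were alike. Deeper genes repeated better. Among the 452 tested genes with the lowest mean estimated counts, 55.5 to 940.8 per library, the shCtrl replicates differed by a median of 12.7 points. Among the 452 with the highest counts, from 4156 upward, they differed by 1.98 points.

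**Figure D1:**
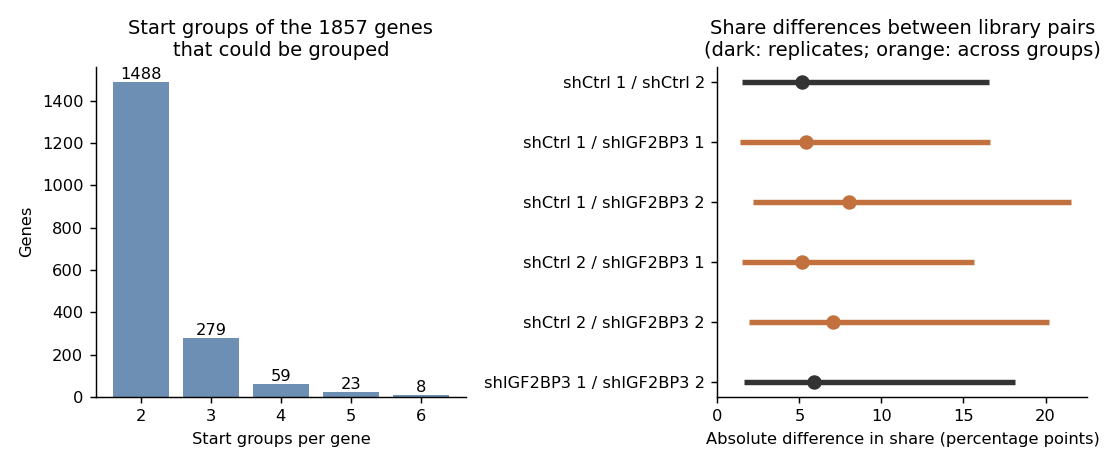
Left, number of start groups per gene (x axis) against the number of genes (y axis): 1488 genes have 2 groups and 8 have 6. Right, absolute difference in share between each pair of libraries, in percentage points, over all start groups (points: median, bars: quartiles, dark for replicates and orange for pairs across groups): the medians lie between 5.13 and 8.02 points, and the replicate pairs sit among the pairs across groups.

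Start usage differed between shCtrl and shIGF2BP3 in 39 of the 1808 genes that could be tested, at an adjusted p under 0.05 by edgeR's gene-level test of differential usage on the counts summed per start group. That is 2.16% of those tested, beside a background of 2.06% over all genes with separate starts, which include those dropped for overlap. At an unadjusted p of at most 0.05 the numbers were 226 genes (12.5%) and a background of 12.3%. On simulated data the calls of this test held 13 unchanged genes beside 53 changed ones, more than an adjusted p under 0.05 allows. The selection bears on the count of 39 as well. Of the 39 genes, 27 had separate starts only through a transcript under 1 FPKM in a group, as did 400 of the 1808 tested, so a large difference in share was partly built into them. Of the genes described below, the 27 include TNS2, EML3, NUP37, KIAA0930, ZNF12, NEK6, IKBKG, SLC25A46, SORT1, H3-3A, EIF2AK4, ID2, NMT1 and PISD. Among the 1408 tested genes with separate starts at 1 FPKM or more in both groups, 12 were called (0.852%), which were SLC3A2, EIF4G1, ANXA6, SRPK2, ABR, CACYBP, PCNA, MCM7, RPL9, APLP1, ASPH and FLII. This condition does not cover the transcript that moved. In EIF4G1, ANXA6, SRPK2, ABR, ASPH and MCM7, for example, a transcript that moved averaged under 1 FPKM in a group. The size of their change is thus partly built in as well. The remaining 50 genes were not tested, because fewer than 2 of their start groups passed the filter on low counts or because they could not be grouped. The RNA is from bulk cultures, so a change in every cell and a change in some of the cells cannot be told apart. The count of calls moved with single libraries. It was 16 without shCtrl replicate 1, 6 without shCtrl replicate 2, 117 without shIGF2BP3 replicate 1 and 41 without shIGF2BP3 replicate 2. Of the 39 genes, 3 (SLC3A2, EIF4G1 and ANXA6) were called in each of these 4 fits, and 12 in none of them.

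In all 39 genes the shares of the leading start group, the group with the largest change in mean share, did not overlap between the groups. The change was 10 points or more in 38 of them and 50 points or more in 20, with a median of 50.5 points and a range from 5.22 to 99.6 points. These sizes are a description, since both the test and the selection favour large changes. The same pattern without a test, no overlap and a change of at least 10 points, was found in 412 of the 1808 tested genes (22.8%) beside a background of 22.7%. In 18 of the 39 genes the largest start group changed and the replicates of each group were alike. The share of the most upstream group rose in 20 of the 39 genes (1.11% of the 1808 tested, background of 1.05%) and fell in 19 (1.05%, background of 1.0%). Over all 1808 tested genes it rose in 811 and fell in 997, with a median of −0.55 points.

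A start group listed at 0 FPKM in both shIGF2BP3 libraries was present in 12 of the 39 genes and in 28 of the 1808 tested. A start group at 0 in both shCtrl libraries was present in 0 of the 39 genes and in 10 of the 1808. For shCtrl, 72 and 116 start groups were at 0 per library, and for shIGF2BP3 112 and 190, highest in the smallest library. Whether depth has a part in these zeros was not tested. A gene on the opposite strand overlapped 16 of the 39 genes (41.0%) and 568 of the 1808 (31.4%). Whether counting took strand into account is not given in the sources used here, so reads of such a partner cannot be told apart. Among the genes without such a partner, 23 of 1240 were called.

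SLC3A2 (ENSG00000168003, chromosome 11, 62856102 to 62888875, plus strand) had the smallest adjusted p. It encodes the heavy chain of CD98, which pairs with amino acid transporters such as SLC7A5 and brings them to the plasma membrane. The most upstream start group held 80.5% and 83.5% of the FPKM in shCtrl and 13.2% and 8.19% in shIGF2BP3. The group 25623 bp further downstream, which is the single transcript ENST00000536981, held 2.59% and 1.79% in shCtrl and 74.5% and 82.8% in shIGF2BP3. The groups of libraries were far apart at both starts. Of the starts between them, the one 24770 bp downstream held 13.4% and 11.3% in shCtrl and 11.1% and 7.65% in shIGF2BP3, and the one 14712 bp downstream held 2.49% and 1.89% in shCtrl and 0.23% and 0.55% in shIGF2BP3. Both were lower in shIGF2BP3 without overlap, by smaller amounts. The change at the downstream start was 76.4 points (2.19 ± 0.57% against 78.6 ± 5.87%, SD, n = 2 each, adjusted p = 5.41e-06). Within the upstream group the change sat in ENST00000377890, where 6550 and 6634 estimated counts in shCtrl stood against 99 and 61 in shIGF2BP3. The other 3 upstream transcripts held 129 to 733 counts each in every library. The total of SLC3A2 in estimated counts differed by 0.13 on the log2 scale (SE 0.13, unadjusted p = 0.342 by edgeR). Its summed FPKM was 110.7 and 106.5 in shCtrl and 154.9 and 141.3 in shIGF2BP3.

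EIF4G1 (ENSG00000114867, chromosome 3, 184314495 to 184335358, plus strand) encodes the scaffold of the cap-binding complex in translation initiation. Its 5 start groups were spread over 12785 bp. The third group held 52.0% and 56.5% in shCtrl and 19.3% and 25.4% in shIGF2BP3, and the second held 37.3% and 24.0% in shCtrl and 0.43% and 0.96% in shIGF2BP3. The fourth group, 5500 bp from the first, held 2.50% and 1.55% in shCtrl and 75.8% and 69.2% in shIGF2BP3. Its transcript ENST00000435046 was listed at 0 in both shCtrl libraries and at 13519 and 8374 estimated counts in the shIGF2BP3 libraries. The change in share was 70.5 points (adjusted p = 1.51e-05). ENST00000441154, the leading transcript of the third group, begins 4593 bp from the first group, and ENST00000435046 begins 5500 bp from it. These transcripts thus begin nearer to each other than the distance set for a new group. Their groups are separate because of ENST00000444861 of the third group, which begins further upstream. It was listed at 0 in shCtrl replicate 1 and shIGF2BP3 replicate 1. The second group, whose share also fell, begins 1028 bp from the first. Where ends were joined in a chain instead, so that nearby starts fell into 1 group, the change was 38.5 points.

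ANXA6 (ENSG00000197043, chromosome 5, 151100712 to 151157882, minus strand), an annexin that binds phospholipids in the presence of calcium, was the third gene called in each fit without a library. Its upstream group held 29.3% and 9.59% in shCtrl and 95.3% and 95.4% in shIGF2BP3. The transcript that begins 16120 bp downstream held 69.3% and 87.5% in shCtrl and was listed at 0 in both shIGF2BP3 libraries, after 3897 and 4656 estimated counts in the shCtrl libraries. The change was −78.4 points at this start (adjusted p = 0.00190, and 0.0494 without shIGF2BP3 replicate 2). The upstream shares did not overlap, although the shCtrl replicates differed by more than the shIGF2BP3 replicates. Within the upstream group the shIGF2BP3 replicates differed too. ENST00000354546 held 71.9% and 19.8% there, and ENST00000521512 held 23.4% and 55.6%. With at least 10 counts required in every library the start at 0 left the test, and the gene was no longer called (adjusted p = 0.532).

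**Figure D2:**
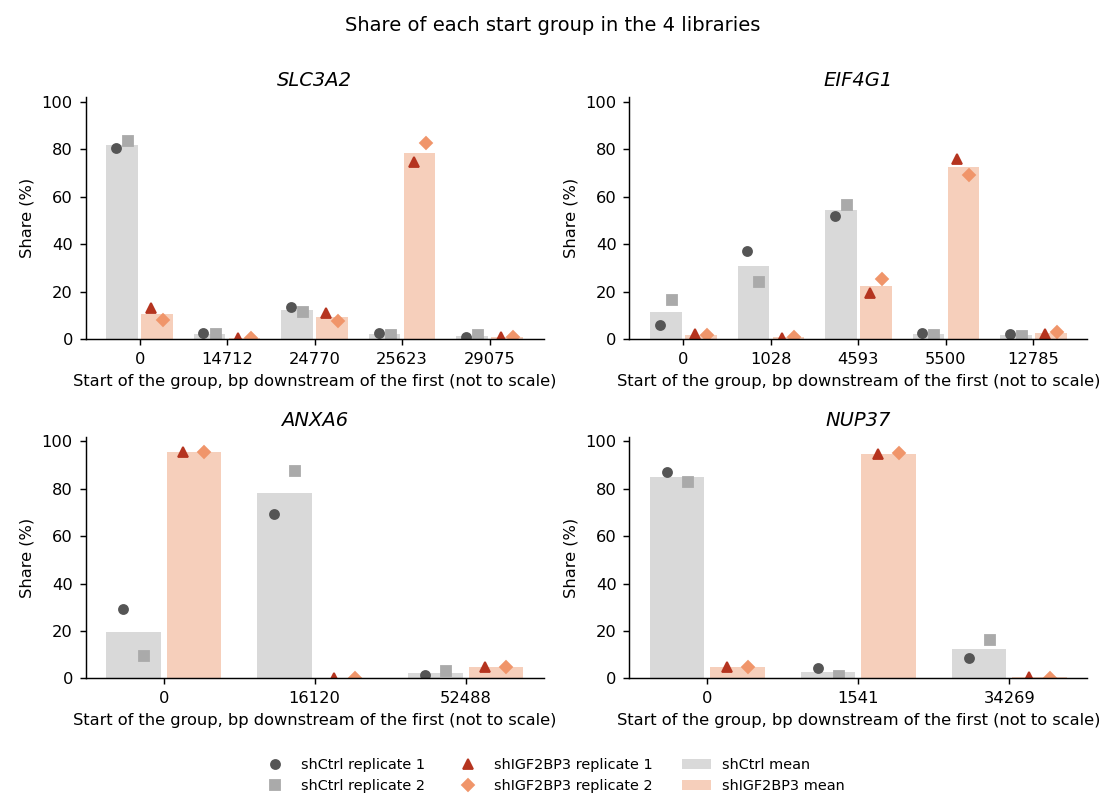
Share of each start group (y axis, % of the gene's summed FPKM) in SLC3A2, EIF4G1, ANXA6 and NUP37, with the groups ordered from upstream to downstream (x axis, distance in bp from the first group, not to scale). Bars are the means of 2 libraries and points are single libraries: in SLC3A2 the share moves from the first group (81.98% in shCtrl) to the fourth (78.6% in shIGF2BP3), and in ANXA6 the second group is at 0 in both shIGF2BP3 libraries.

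The largest change of share was in TNS2 (ENSG00000111077, chromosome 12, 53046969 to 53064372, plus strand), which encodes tensin 2, a focal adhesion protein. The upstream transcript held 99.9% and 100% in shCtrl and 0.80% and 0% in shIGF2BP3, and the transcript 2927 bp downstream held the rest. These were few reads: 594 and 274 estimated counts of the upstream transcript in shCtrl and 500 and 288 of the downstream transcript in shIGF2BP3. The shares were at opposite ends of the scale. Each of these transcripts passed the FPKM minimum only through the group where it was high, at 3.06 and 1.41 FPKM in shCtrl for the upstream one and 2.51 and 1.67 FPKM in shIGF2BP3 for the downstream one, so the near-complete exchange is shaped by the selection. The adjusted p was 0.0275, and the call was lost without shCtrl replicate 1 (0.131), shCtrl replicate 2 (0.144) or shIGF2BP3 replicate 2 (0.0590), and with an FPKM minimum of 0.5 (0.331). Counted over all listed transcripts of the gene, the change was −62.1 points in place of −99.6.

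EML3, a microtubule-binding protein of the EMAP family, was the opposite case (ENSG00000149499, chromosome 11, 62602218 to 62612765, minus strand). Its upstream group held 6.66% and 4.79% in shCtrl and 98.4% and 99.7% in shIGF2BP3. The group 1374 bp downstream fell from 1627 and 1496 estimated counts to 13 and 3. The change was 93.3 points, or 71.2 points over all listed transcripts (adjusted p = 0.00573). The call was lost without shCtrl replicate 1 (0.0844) or shCtrl replicate 2 (0.0836). TNS2 and EML3 both overlap a gene on the other strand. Of the genes described below, IKBKG, ABR, SLC25A46, MCM7, RPL9, NMT1, PISD, CDKN2A, SREBF1 and CERS2 do so too.

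NUP37 (ENSG00000075188, chromosome 12, 102073103 to 102120124, minus strand) encodes a subunit of the nuclear pore scaffold. Its upstream transcript held 87.0% and 82.7% in shCtrl and 4.81% and 4.77% in shIGF2BP3, while the transcript 1541 bp downstream held 4.56% and 0.97% in shCtrl and 94.5% and 95.1% in shIGF2BP3. The downstream transcript was at 1.06 and 0.22 FPKM in shCtrl and 44.5 and 43.8 FPKM in shIGF2BP3. It passed the FPKM minimum only through shIGF2BP3, so the exchange is shaped by the selection. The change was 92.0 points (adjusted p = 0.00595), and the call was lost without shCtrl replicate 2 (0.0631) or shIGF2BP3 replicate 2 (0.0742), and with start groups at 5000 bp (0.117). The total of the gene in estimated counts differed by 0.30 on the log2 scale (SE 0.13, unadjusted p = 0.0643 by edgeR). Its summed FPKM was 24.6 and 24.2 in shCtrl and 48.2 and 47.2 in shIGF2BP3.

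KIAA0930 (ENSG00000100364, chromosome 22, 45190338 to 45240769, minus strand) lost a downstream start. The transcript that begins 28281 bp from the first held 87.4% and 96.3% in shCtrl and was listed at 0 in both shIGF2BP3 libraries, where the upstream transcript held 100%. The upstream transcript rose from 0.97 and 0.34 FPKM to 2.86 in each shIGF2BP3 library. The adjusted p was 0.0108, and the call was lost without shCtrl replicate 1 (0.0797), shCtrl replicate 2 (0.0836) or shIGF2BP3 replicate 2 (0.0590). In estimated counts rather than FPKM the change was −79.8 points in place of −91.9.

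ZNF12 and NEK6 fell at their upstream starts. ZNF12, a zinc finger repressor (ENSG00000164631, chromosome 7, 6688433 to 6706923, minus strand), had 99.8% at its upstream start in each shCtrl library and 13.5% and 12.1% in shIGF2BP3. The rest lay 6009 bp downstream, where 2 and 2 estimated counts in shCtrl stood against 912 and 742 in shIGF2BP3. The change was 87.0 points (adjusted p = 0.000439), lost without shCtrl replicate 2 (0.0526). NEK6, a kinase of mitosis (ENSG00000119408, chromosome 9, 124257606 to 124353307, plus strand), had 99.1% and 99.9% at the upstream group in shCtrl and 18.1% and 10.7% in shIGF2BP3, with the other start 33720 bp away. Its adjusted p was 0.0271 over all 4 libraries and 0.0551 to 0.128 with any library left out, so the call was lost each time. It was also lost with an FPKM minimum of 0.5 (0.249) or 2 (0.0621).

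IKBKG encodes NEMO, the regulatory subunit of the IκB kinase complex (ENSG00000269335, chromosome X, 154541199 to 154565046, plus strand). Its upstream transcript held 86.0% and 83.9% in shCtrl and was listed at 0 in both shIGF2BP3 libraries, where the transcript 5044 bp downstream held 100%. That downstream transcript was at 0.77 and 0.86 FPKM in shCtrl and 1.86 and 2.48 FPKM in shIGF2BP3. The change was −84.9 points (adjusted p = 0.00595), lost without shCtrl replicate 1 (0.0942) or shCtrl replicate 2 (0.0901), and −51.9 points over all listed transcripts. IKBKG has a nearly identical pseudogene copy nearby and a gene on the other strand, so its values are uncertain.

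SRPK2 and ABR had starts very far apart. SRPK2, a kinase of SR splicing factors (ENSG00000135250, chromosome 7, 105115269 to 105389391, minus strand), had 80.1% and 74.6% at the upstream start in shCtrl and 8.86% and 18.3% in shIGF2BP3. The start 119879 bp downstream held 0.34% and 0.25% in shCtrl and 72.2% and 69.5% in shIGF2BP3. The third start, 255826 bp downstream, held between 12.2% and 25.1% in every library, and its shares overlapped between the groups. The change was 70.6 points (adjusted p = 0.000639), lost without shCtrl replicate 1 (0.0566) or shCtrl replicate 2 (0.0631), and with at least 10 counts in every library (0.211). ABR regulates small GTPases (ENSG00000159842, chromosome 17, 1003518 to 1229004, minus strand). Its first transcript held 45.4% and 57.9% in shCtrl and was listed at 0 in shIGF2BP3, and the transcript 7448 bp downstream rose from 2 and 2 estimated counts to 1982 and 1901. The change at the second start was 62.4 points (adjusted p = 0.00193), lost without shCtrl replicate 1 (0.107) or shCtrl replicate 2 (0.133), and with at least 10 counts in every library (0.981). The 3 other starts of ABR had shares that overlapped between the groups, at 34.7% and 19.3% against 39.4% and 7.80% for the largest of them.

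SLC25A46 and SORT1 rose at their upstream starts. SLC25A46, a mitochondrial outer membrane protein (ENSG00000164209, chromosome 5, 110738161 to 110762784, plus strand), had 30.4% and 23.0% at the upstream start in shCtrl and 99.0% and 97.9% in shIGF2BP3. The transcript 2684 bp downstream fell from 4.23 and 4.11 FPKM to 0.10 and 0.20 FPKM. The change was 71.8 points (adjusted p = 0.00827), lost without shCtrl replicate 1 (0.0844), shCtrl replicate 2 (0.0836) or shIGF2BP3 replicate 2 (0.0555). SORT1, the sorting receptor sortilin (ENSG00000134243, chromosome 1, 109309568 to 109397951, minus strand), had 29.8% and 31.6% at the upstream start in shCtrl and 98.2% and 99.9% in shIGF2BP3. The replicates of SORT1 lay close together, but the adjusted p was 0.0479 and the call was lost without shCtrl replicate 1 (0.217) or shCtrl replicate 2 (0.218). It was also lost with library totals as factors (0.0595) or without the filter on low counts (0.0536).

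CACYBP encodes a calcyclin-binding protein linked to ubiquitin ligases (ENSG00000116161, chromosome 1, 174999163 to 175011715, plus strand). Its upstream group held 30.3% and 31.0% in shCtrl and 96.4% and 97.5% in shIGF2BP3. ENST00000405362 of the second group fell from 3324 and 3484 estimated counts to 97 and 64, and ENST00000367679 of the first rose from 3226 and 3722 to 8446 and 8727. The leading transcripts of its groups begin only 480 bp apart, and the groups are separate because of transcripts that begin further upstream. When ends were joined in a chain, CACYBP had a single start group. The change was 66.3 points (adjusted p = 0.000611), lost without shCtrl replicate 2 (0.0536), and 46.5 points in estimated counts.

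**Figure D3:**
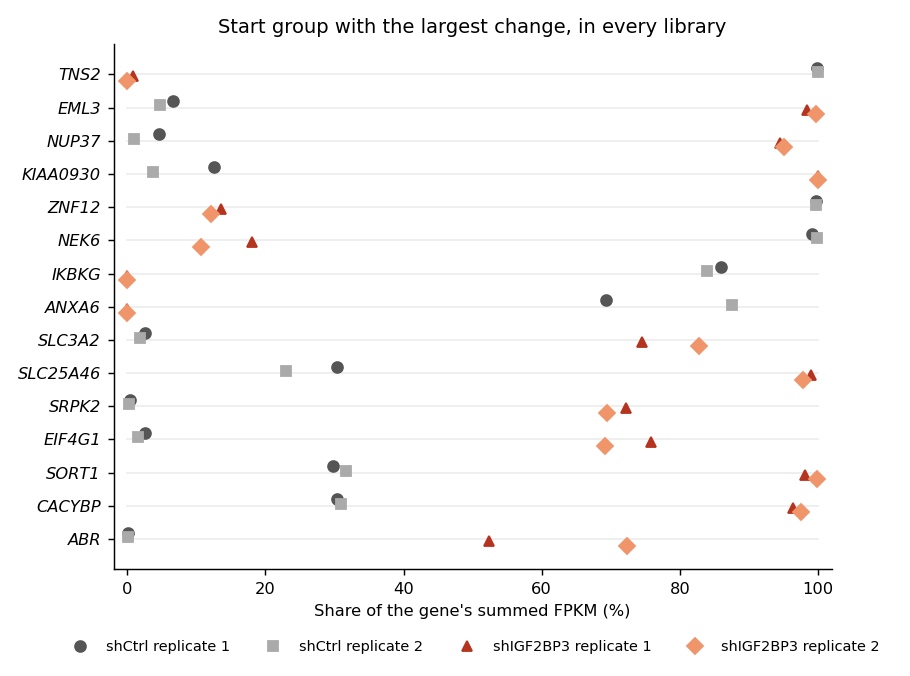
Share of the start group with the largest change (x axis, % of the gene's summed FPKM) in each of the 4 libraries for the 15 called genes with the largest changes (y axis). For genes with 2 start groups the upstream group is drawn. The genes were chosen for shares that do not overlap between the groups, so their points are apart by choice. They run from TNS2 (99.9% and 100% against 0.80% and 0%) to ABR (52.4% and 72.4% in shIGF2BP3).

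The other 24 called genes changed by 5.22 to 56.4 points and are named here after their values were seen. Among genes of DNA replication, PCNA, the sliding clamp of the replicative polymerases, had 4.33% and 2.79% at its upstream start in shCtrl and 18.3% and 25.0% in shIGF2BP3. MCM7, a subunit of the replicative helicase, had 0.31% and 0.24% at a start 1160 bp downstream in shCtrl and 9.47% and 15.1% in shIGF2BP3. These minor starts were higher in both shIGF2BP3 libraries than in either shCtrl library. The adjusted p was 0.0217 for PCNA and 0.000326 for MCM7, and the MCM7 call was lost without shCtrl replicate 2 (0.0631). The PCNA call was kept only without shIGF2BP3 replicate 1 (0.0470), with values up to 0.144 without the others.

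RPL9 and H3-3A had replicates that lay close together. RPL9, a ribosomal protein of the large subunit, had 3.03% and 2.58% at its second start in shCtrl and 8.16% and 7.89% in shIGF2BP3. H3-3A, which encodes the replacement histone H3.3, had 22.4% and 22.6% at its second start in shCtrl and 0.22% and 0.23% in shIGF2BP3. In both genes the replicates were within 1 point of each other. The adjusted p was 0.0272 for RPL9, lost in all 4 fits without a library (up to 0.152), and 0.000326 for H3-3A, lost without shCtrl replicate 2 (0.0504). RPL9 and H3-3A have nearly identical copies elsewhere in the genome, so their reads may be shared with other loci.

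Among regulators of translation and development, EIF2AK4, the amino acid sensing kinase GCN2, had 93.7% and 96.1% at the upstream start in shCtrl and 69.9% and 47.9% in shIGF2BP3 (adjusted p = 0.00883, up to 0.140 with a library left out). ID2, an inhibitor of helix-loop-helix transcription factors, had 47.6% and 54.6% at the upstream start in shCtrl and was listed at 0 there in both shIGF2BP3 libraries (adjusted p = 0.0316, up to 0.109). The shares of both genes did not overlap between the groups. NMT1, which attaches myristate to proteins, had 61.8% and 22.8% at the upstream start in shCtrl and 0.12% and 0.01% in shIGF2BP3, so its shCtrl replicates disagreed on the larger start (adjusted p = 0.0286, up to 0.171). PISD, the mitochondrial decarboxylase that makes phosphatidylethanolamine, had 99.5% and 99.7% at the upstream group in shCtrl and 66.6% and 59.5% in shIGF2BP3 (adjusted p = 0.00497, up to 0.0855). Within the upstream group of PISD the shCtrl replicates differed, with 99.5% and 21.9% in ENST00000439502. The remaining genes were TFDP2, SERGEF, SLC35A2, PHF10, APLP1, SEC22C, FEZ2, ADH5, FLII, SYNJ2, DNAJC11, GTF2F1, ASPH, DUSP14, UBAP1 and STEAP1.

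The totals of the called genes, taken as summed estimated counts, differed by amounts like those of the tested genes. Summed FPKM can differ from these totals. In KIAA0930 it was 7.72 and 9.61 in shCtrl and 3.03 and 2.87 in shIGF2BP3, beside a log2 fold change of −0.13 in counts. In TFDP2 it was 6.14 and 6.86 against 3.17 and 3.44, beside 0.14. In SORT1 it was 6.89 and 5.25 against 7.14 and 6.41, beside 0.26. The measures were not compared over all called genes. The median absolute log2 fold change of the gene total was 0.17 in the 39 called genes (range −0.57 to 0.67) and 0.20 in the 1808 tested genes. Only SLC25A46 among the 39 was also past the study's thresholds for the total, an unadjusted p of at most 0.05 and a difference of at least 1.5-fold (log2 fold change 0.67, SE 0.15, unadjusted p = 0.0055 by edgeR). Of all 1858 genes, 41 were higher (2.21%, background of 2.54%) and 49 lower (2.64%, background of 2.78%) at these thresholds. These counts moved when single libraries were left out. The shares over all genes are not given for those fits, so the movement does not set the selected genes apart. At an adjusted p under 0.05 no total passed by edgeR, with 241 at an unadjusted p of at most 0.05, while DESeq2 called 32 and limma 0. The shares over all genes are not given for the 241 and the 32, so neither count sets the selected genes apart.

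**Figure D4:**
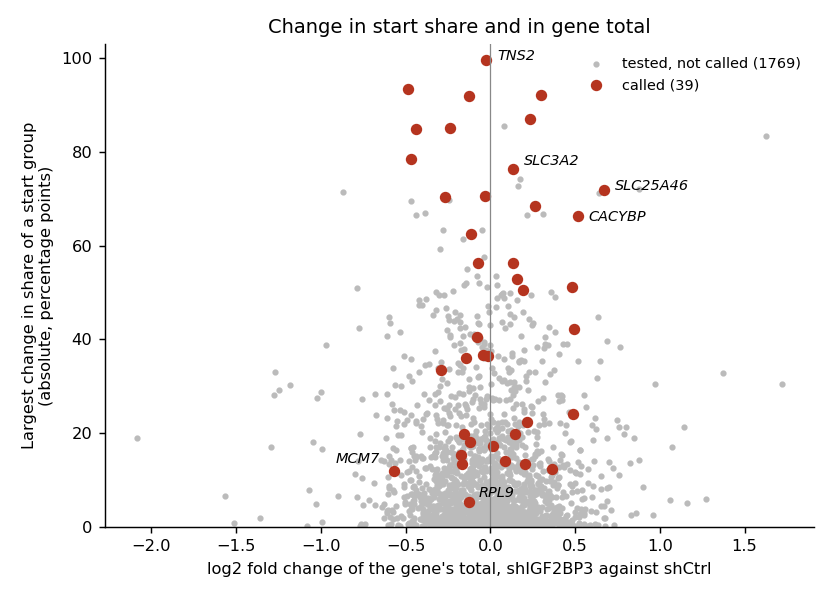
Log2 fold change of the gene's total in estimated counts, shIGF2BP3 against shCtrl (x axis), against the largest absolute change in share of a start group, in percentage points (y axis). The 1808 tested genes are drawn, with the 39 called genes in red. The called genes lie between −0.57 and 0.67 on the x axis, and their changes in share run from 5.22 to 99.6 points.

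A list of 87 genes known for alternative promoters held 25 of the selected genes. By edgeR 0 of the 25 were called, beside 2.16% of all tested genes, which is less than 1 gene in a list of this size. At an unadjusted p of at most 0.05 were 3 (ARHGEF2, MAP4 and SEPTIN9), which is 12.0% beside 12.5% of all tested genes. DESeq2 and limma each called 1, beside 74 and 63 of all 1858 selected genes. Their median largest change was 10.9 points, beside 6.89 points over all tested genes. The 8 with the highest levels are given here. TPM2, a tropomyosin that stabilises actin filaments, had 40.5% and 45.4% at its upstream start in shCtrl and 42.2% and 36.3% in shIGF2BP3, and the start 1107 bp downstream held most of the rest. TPM1 had 62.3% and 66.9% upstream in shCtrl and 76.4% and 62.6% in shIGF2BP3. The shares of both tropomyosins overlapped between the groups (adjusted p = 0.865 and 0.922).

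In TPM3 the total was past the study's thresholds and the start shares overlapped. Its upstream group held 98.1% and 99.4% in shCtrl and 99.3% and 98.5% in shIGF2BP3 (adjusted p = 0.952). The summed level of that group was 160.4 and 123.3 FPKM in shCtrl and 50.6 and 58.9 FPKM in shIGF2BP3, without overlap. The total had a log2 fold change of −1.08 (SE 0.16, unadjusted p = 0.00083, adjusted p = 0.241 by edgeR).

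In LMNA, which encodes the nuclear lamins A and C, the start 32129 bp downstream held 84.6% and 92.1% in shCtrl and 84.8% and 78.1% in shIGF2BP3 (adjusted p = 0.680). CDKN2A, whose separate first exons give the p16 and ARF proteins, had 92.4% and 77.7% at its upstream group in shCtrl and 97.4% and 91.5% in shIGF2BP3 (adjusted p = 0.629). SREBF1, the transcription factor of fatty acid and sterol synthesis, spread over 5 start groups (adjusted p = 0.808). The third group changed most, from 26.6% and 26.3% in shCtrl to 23.1% and 16.0% in shIGF2BP3, a difference of −6.89 points without overlap. The most upstream held 15.1 ± 0.21% (SD, n = 2) in shCtrl and 15.4% and 24.6% in shIGF2BP3. The shares overlapped between the groups in LMNA and CDKN2A, and at both of these SREBF1 starts shIGF2BP3 replicate 1 lay nearer to the shCtrl libraries than replicate 2 did. PKM, the pyruvate kinase of glycolysis and the deepest of the 8, had 94.2% and 97.4% at its upstream group in shCtrl and 98.3% and 99.5% in shIGF2BP3 (adjusted p = 0.402). Its single transcripts did pass in transcript usage (adjusted p = 0.0307).

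GNAS, which encodes the stimulatory G protein alpha subunit, had replicates that differed from each other. Its most upstream group held 20.3% and 0% in shCtrl and 20.7% and 0.04% in shIGF2BP3, and the second held 16.6% and 0% in shCtrl and 9.68% and 0% in shIGF2BP3. In each group 1 library thus held reads at the upstream starts and the other held nearly none (adjusted p = 0.999). The labels number both of the former 1, whereas in the column names of the files the shIGF2BP3 libraries carry 2 and 3, so the match of numbers holds for the labels alone. The group with most of the transcript, 51584 bp downstream, held 58.8% and 94.9% in shCtrl and 64.9% and 95.4% in shIGF2BP3.

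Lipid genes were the interest of the study. Of 97 symbols listed for lipid metabolism, 16 were selected, 15 were tested and 1 was called, PISD (6.67%, beside 2.16% of all tested genes). With STARD3, 2 were at an unadjusted p of at most 0.05 (13.3%, beside 12.5%). A single call sets the first of these shares. SREBF1 is given above, and the next 4 by level are described here. ACOT7, a long-chain acyl-CoA hydrolase, had 5 start groups, of which 3 held the largest share in at least 1 of the 4 libraries. The group 33059 bp downstream held 77.7% in shCtrl replicate 1 and 0.45% in shCtrl replicate 2, and it was listed at 0 in both shIGF2BP3 libraries. The group 34422 bp downstream held 3.53% and 74.7% in shCtrl and 80.1% and 3.66% in shIGF2BP3, and the group 7953 bp downstream held 83.2% in shIGF2BP3 replicate 2 alone (adjusted p = 0.535).

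CERS2, the ceramide synthase of very long chain acyl groups, had 85.6% and 60.7% upstream in shCtrl and 53.7% and 28.2% in shIGF2BP3. These shares did not overlap, but the spread within each group was wide (adjusted p = 0.717). FDFT1, the squalene synthase, had 48.0% and 30.7% upstream in shCtrl and 59.5% and 47.6% in shIGF2BP3, with overlap (adjusted p = 0.544). PLIN3, a lipid droplet coat protein, had 53.4% at its second start in shCtrl replicate 1 and was listed at 0 there in the other 3 libraries. PLIN3 was not tested, since that start did not pass the filter.

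**Figure D5:**
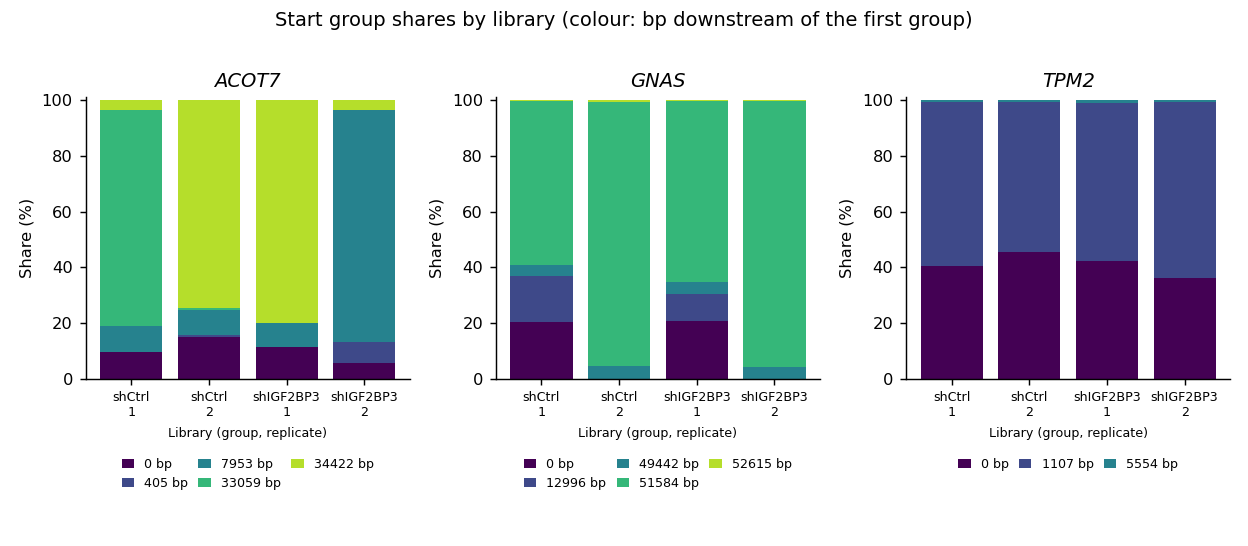
Shares of the start groups (y axis, %) in each of the 4 libraries (x axis) for ACOT7, GNAS and TPM2, with colours for the distance of the group from the most upstream. In ACOT7 the largest group changes between replicates (77.7% against 0.45% in shCtrl), in GNAS the replicates of each group differ, and in TPM2 the upstream start holds 36.3% to 45.4% in the 4 libraries.

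Calls in the other lists were few, beside 2.16% of all tested genes called by edgeR and 12.5% at an unadjusted p of at most 0.05. Over all 1858 selected genes DESeq2 called 74 and limma 63, more than edgeR did. Among 29 genes of the cytoskeleton and adhesion 0 were called by edgeR, with 4 (ACTN1, MAP4, SEPTIN9 and SPTBN1) at an unadjusted p of at most 0.05 (13.8%), 2 called by DESeq2 and 1 by limma. Among 35 genes of transcription and chromatin 0 were called by edgeR, with 4 (E2F3, SMAD3, TCF12 and TEAD2) unadjusted (11.4%), 2 by DESeq2 and 1 by limma. Of 39 tested genes of RNA binding and splicing, 1 was called (EIF4G1), with 8 unadjusted (20.5%), EIF4G2, EIF4G3, PABPC1 and PTBP1 among them, 1 by DESeq2 and 2 by limma. Of 29 kinases and phosphatases 1 was called (NEK6), with 4 unadjusted (13.8%), 1 by DESeq2 and 2 by limma. Of 13 tested metabolic enzymes and transporters 1 was called (SLC3A2), with 2 unadjusted (15.4%) and 1 each by DESeq2 and limma. Over all 8 lists 4 of 174 tested genes were called (2.30%), beside 35 of 1634 in no list (2.14%).

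Single transcripts were compared in the same way, which also allowed genes whose kept transcripts share a start. Transcript usage passed in 69 of 1829 genes with separate starts (3.77%) and in 86 of 2803 genes whose kept transcripts begin within 1000 bp (3.07%), beside a background of 3.29% over all 5142 genes tested. The genes with separate starts also had more kept transcripts, a median of 3 against 2. The difference between these shares was not tested. The 69 rose without shIGF2BP3 replicate 1 and without shIGF2BP3 replicate 2, in fits for which the share over all genes is not given. Of the genes called in start usage, 33 were also called in transcript usage, which is 84.6% of the start calls and 47.8% of the transcript calls. For 36 genes only single transcripts passed, and for 6, SORT1 among them, only the start groups.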

How the data were processed

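RNA was extracted from 2 shCtrl and 2 shIGF2BP3 cultures of H1299 cells, and libraries were prepared with an mRNA kit. For every transcript and library the authors deposited an estimated count, whole and not normalized, and an FPKM value. The submitters' processing notes name HISAT2, Trimmomatic, FastQC, CASAVA, bedtools and GRCh38. The counter and its use of strand are not given in the sources used here. Shares rest on how that step split reads between overlapping transcripts.

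Start usage and transcript usage were tested with edgeR 4.0.16 (R 4.3.3; glmQLFit and diffSpliceDGE, gene-level F, TMM, filterByExpr, group as the only term, Benjamini-Hochberg over all genes tested), and gene totals with glmQLFTest. Alternatives used DESeq2 1.42.0 and limma 3.58.1. On simulated data the start usage test called 53 of 196 genes with a changed share and also 13 unchanged genes, at an adjusted p under 0.05. The calls thus held a larger part of unchanged genes than that threshold allows. An unadjusted p under 0.05 by that test was found in 7.28% of the unchanged genes, more than the nominal rate. The p-values measure the spread between 2 libraries per group, and an exact permutation test of 2 against 2 cannot go below 0.33.

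Symbols came from RefSeq (GRCh38.p14) by position, for 1815 of the 1858 genes. The members and gene lists were chosen with earlier results of these data known. Named were the 15 called genes with the largest non-overlapping change in share, the 8 alternative promoter genes and 5 lipid genes of highest FPKM, and any of IGF2BP1, IGF2BP2, IGF2BP3 and FASN that were selected. Alternatives are in the closing section. A marker gene and 1 gene list are not reported here.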

Additional observations from a re-analysis of the deposited data

How the results depend on the processing

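The number of genes called in start usage, 39, stayed within 1.5 times under RLE factors, library totals, no filter, FPKM minimums of 0.5 and 2, chained ends, and limma with a pseudocount of 0.1 or without a filter. It was 74 by DESeq2, 63 by limma on log2(FPKM + 1), 24 with start groups at 5000 bp and 15 with at least 10 counts in every library, and 23 among genes without a gene on the other strand, and 12 among genes with separate starts at 1 FPKM or more in both groups, both counts chosen after seeing the data. Leaving out each library gave 6 to 117. The 69 calls of transcript usage became 173 by DESeq2, 36 with Simes adjustment, 40 with at least 10 counts in every library, and 62 to 219 with a library left out. Totals by limma on log2(FPKM + 1) were 24 higher and 87 lower, and with a library left out 25 to 101 higher and 35 to 136 lower. In a fit with the replicate block, 7 genes were called in start usage and 7 in transcript usage. Of the 15 called genes with the largest changes, SLC3A2, EIF4G1, ZNF12 and CACYBP were called with it, and the others had an adjusted p of 0.0546 (ANXA6) to 0.195 (SORT1). The samples share only a number, and only in the labels, since the columns number the shIGF2BP3 libraries 2 and 3. Deviations from the group means in the libraries labelled 1 had a correlation of 0.103 over start groups. With 2 libraries per group the other pair gives the same value. Of the adjusted p of named genes under alternatives, 374 stayed on their side of 0.05 and 47 rose above it. The 374 also count named genes that were not called in the first place, so they do not measure how stable the calls were. Of the share changes of named genes, 172 moved by less than the spread between replicates and 15 by more. The 15 called genes with the largest changes, for which this was computed, kept their sign. GNAS and TPM3, which were not called, changed sign with a library left out, with ranges of −11.8 to 4.84 points for GNAS and −0.79 to 0.57 points for TPM3. The cause of these changes was not tested. With 2 libraries per group, shares of genes with few counts are limited by the differences between replicates.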

Other observations

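Among the 36 genes that passed in transcript usage but not in start usage, the largest change was in MAP1S, a microtubule-associated protein. Its transcript ENST00000324096 held 3.77% and 2.72% of the summed FPKM in shCtrl and 98.1% and 93.9% in shIGF2BP3, without overlap. The adjusted p was 0.00157 for single transcripts by edgeR and 0.653 for start groups, where the upstream group that holds this transcript was at 92.2% and 91.1% in shCtrl and 98.1% and 93.9% in shIGF2BP3. ASXL1, a chromatin regulator of the Polycomb system, had 7.92% and 6.83% in ENST00000375687 in shCtrl and 64.8% and 52.8% in shIGF2BP3 (adjusted p = 0.000555, and 0.672 for start groups). KIF20A, a kinesin of cytokinesis, had 75.4% and 74.8% in ENST00000508792 in shCtrl and 18.6% and 41.2% in shIGF2BP3 (adjusted p = 0.00144, and 0.296 for start groups). ACTN1, which crosslinks actin filaments, had 0.0175% and 0% in ENST00000394419 in shCtrl and 43.9% and 24.0% in shIGF2BP3 (adjusted p = 0.0199). These genes were chosen after their values were seen.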
